A study of Mus musculus with 8 samples.

Results

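The ID genes and the BMP signalling genes that are usually read with them were followed through sorted mouse pigment-lineage cells. They comprise 9 genes of the 22180 with a value: Id1, Id2, Id3 and Id4, the ligands Bmp2 and Bmp4, the receptors Bmpr1a and Bmpr2, and the inhibitor Smad6. Members were chosen by their symbol in the platform annotation. Where several probe sets had that symbol alone, the one that averaged highest across the arrays stood for the gene. Apart from that mean, measured values had no part in the rule, but the members were chosen with earlier results of these data known.

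Bone morphogenetic proteins (BMPs) are secreted ligands that join type I receptors such as Bmpr1a to type II receptors such as Bmpr2. The type I receptor then phosphorylates SMAD proteins, which enter the nucleus and switch on target genes, among them Id genes and the feedback inhibitor Smad6. ID proteins have a helix-loop-helix domain but no DNA-binding region. They bind E proteins and keep them from activating differentiation genes, and in skin BMP signalling is known for holding hair follicle stem cells at rest.

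RNA was measured on 8 mouse gene arrays. P4_WT holds 2 arrays from pups of 4 days and P21_WT holds 2 arrays from mice of 21 days, both wild type (B-raf +/+). P21_KO holds 4 arrays from mice of 21 days with floxed alleles of B-raf (B-raf fl/fl) and of a further gene, which is wild type in the other groups. Mice of every group carried Tyr::Cre, a Cre recombinase driven by the tyrosinase promoter of the pigment lineage, and Z/EG, a reporter that turns on green fluorescent protein (GFP) after recombination. Controls were thus also exposed to Cre. Every group was of mixed C57Bl/6 and 129/Sv background. The floxed strain started on 129/Sv and the transgenic strains on C57Bl/6, so the share of each background in a group cannot be told apart from its genotype.

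Whole skin was digested with collagenase IV and dispase, and cells that were GFP-positive and free of surface p75 were sorted. By the labels they are melanoblasts, from which pigment cells arise, at 4 days and melanocyte stem cells at 21 days. Age and this cell stage differ together and cannot be told apart. A change with age below means the difference between P21_WT and P4_WT. P21_KO replicates 2, 3 and 4 carry a common number in their labels, with no word on what it stands for. Whether these 3 arrays come from independent animals is therefore unknown. All p-values measure the spread between arrays, and the number of arrays limits their precision.

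Values are on a log2 scale, on which a difference of 1 is a doubling of signal. The array medians lay between 3.16 and 3.27, which is about the level of a gene with little or no signal. Braf, a target of the knockout, read 5.99 and 7.20 in P21_WT and 6.57, 6.49, 6.30 and 5.66 in P21_KO, so the groups overlapped. Where its probes lie relative to the deleted part is not given in the sources used here, so the value need not report on the deletion. All 10 melanocyte markers were above the array median on every array. Dct, an enzyme of melanin synthesis, read 10.99 and 11.02 in P4_WT, 10.69 and 10.72 in P21_WT and 8.76 to 10.24 in P21_KO. Tyr, another such enzyme, fell further, with means of 9.52, 7.58 and 5.66 in these groups. On every array the 7 measured Schwann cell and glial markers were also all above the median. So were at least 8 of 9 measured keratinocyte markers and 7 of 10 fibroblast and dermal papilla markers. The purity of the sorted cells is therefore not given by this count. In P4_WT replicate 1 the 10 hair matrix and inner root sheath markers averaged 5.96, against 4.22 in replicate 2 and 3.04 to 3.13 on the arrays of 21 days. P4_WT replicate 2 stood apart from the other 7 arrays in Xist and in endothelial and immune cell markers. Its Xist value was 8.94 against 1.95 to 2.77 elsewhere, its 10 endothelial markers averaged 5.34 against 3.13 to 3.41, and its 9 immune cell markers averaged 6.04 against 3.01 to 3.59.

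Id2 was lower in both groups of 21 days than in P4_WT. It was the only one of the 9 genes that passed the test in any comparison. No knockout array of 4 days was measured, so a change with age within the knockout is not given. Id2 binds E proteins and is one of the Id genes expressed in many stem and progenitor cells. It lies on chromosome 12, at 25093799 to 25096092 on the minus strand of GRCm38.p6. The 250 bases before its start, at chr12:25096093-25096342 on the minus strand, are shown because this is the only member that was called. They come from RefSeq's GRCm38.p6 promoters, and capitals mark the GC-rich SMAD motifs GGCGCC, which begins at position -231 from the start, and GGAGCC, which begins at -88.
Id2 promoter, 5′ to 3′: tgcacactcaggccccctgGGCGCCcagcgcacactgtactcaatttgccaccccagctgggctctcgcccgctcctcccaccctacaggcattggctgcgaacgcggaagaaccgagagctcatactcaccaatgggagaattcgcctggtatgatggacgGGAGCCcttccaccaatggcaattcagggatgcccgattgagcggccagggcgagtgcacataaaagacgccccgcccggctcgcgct
No CAGAC, the SMAD box, was found in this window on either strand. Over 32851 mouse promoters of the same length, GGCGCC was found in 9.59%, GGAGCC in 26.0%, CAGAC in 42.2% and at least 1 of the 3 in 60.9%. A match to so short a motif is a description of the letters and does not show that a SMAD binds there.

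Promoters of 7 of the 9 members were in that table, and those of Id1 and Bmp2 were not matched. GGCGCC was also present in the windows of Id4, Bmpr1a and Bmpr2, GGAGCC in those of Id3, Id4, Bmp4 and Smad6, and CAGAC in that of Id3. The Bmpr1a window, 34502547 to 34502796, lies within its gene, listed as 34411061 to 34503336. The Smad6 window, 64022060 to 64022309, overlaps its gene, listed as 63953076 to 64022085. The motifs were searched on both strands, and no match overlapped another.

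Id2 read 8.58 and 8.46 in the P4_WT arrays, 6.65 and 7.25 in the P21_WT arrays, and 6.45, 7.00, 6.89 and 6.57 in the P21_KO arrays. Both arrays of young pups lay above all 6 arrays of older mice, and the values of the 2 genotypes at 21 days were interleaved. The P4_WT mean was 8.52 ± 0.08 (SD, n = 2). At 21 days the means were 6.95 ± 0.42 (SD, n = 2) for wild type and 6.73 ± 0.26 (SD, n = 4) for the knockout.

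Between the wild-type groups Id2 fell by 1.57 ± 0.26 (SE) on the log2 scale, with a 95% interval from -2.17 to -0.98. That is a 2.97-fold lower signal at 21 days (limma adjusted p = 0.0280). Id2 was thus 1 of 9 members called at an adjusted p under 0.05, where 1.61% of all genes were called, 0.757% higher and 0.852% lower. It was also the only member with an unadjusted p under 0.05, which 12.6% of all genes had. The call rested on few arrays. It was lost without P4_WT replicate 1 (adjusted p = 0.0989 with limma), without P4_WT replicate 2 (0.0880), without P21_WT replicate 1 (0.140) and without P21_KO replicate 3 (0.0533), as well as when only the 2 groups compared were fitted (0.114), and the change in these fits lay between -1.63 and -1.27.

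In the knockout cells Id2 differed from P4_WT by -1.80 ± 0.23 (SE), with a 95% interval from -2.31 to -1.28 and a 3.48-fold lower signal (limma adjusted p = 0.00296). Age and genotype differ together in this comparison, and it shares its P4_WT arrays with the wild-type one, so the 2 falls are not independent. Here 7.73% of all genes were called, 3.05% higher and 4.68% lower, and Id2 was the only member among them. Id2, Id3 and Id4 had an unadjusted p under 0.05, or 3 of 9 members beside 20.5% of all genes. The call held in all 21 alternative fits, with adjusted p-values up to 0.0421. Without P4_WT replicate 2, the array with raised endothelial and immune cell markers, the change was -1.86.

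Knockout and wild-type cells of 21 days differed by -0.23 ± 0.23 (SE) for Id2, with a 95% interval from -0.74 to 0.29 (limma adjusted p = 0.936). No member was called in this comparison. Among all 22180 genes limma called 0, or 0%, while 1447 genes, or 6.52%, had an unadjusted p under 0.05, and none of these was a member.

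**Figure D1:**
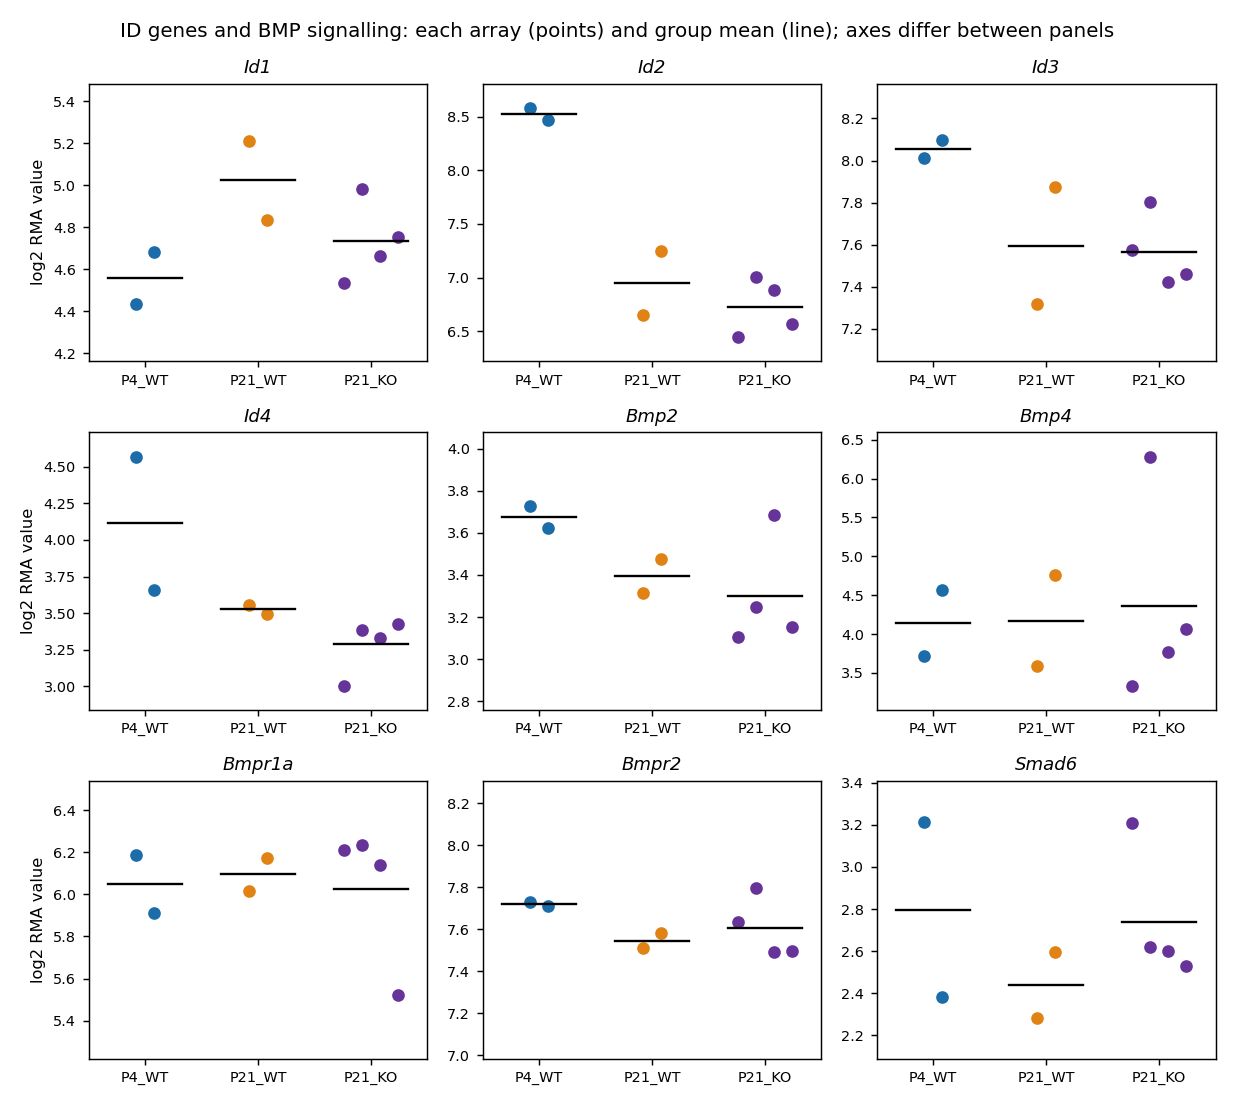
Log2 value of each of the 9 genes on every array, by group, with points for arrays and lines for group means, on an axis of its own for each gene. The Id2 panel shows the 2 arrays of 4 days at 8.46 and 8.58 and the 6 arrays of 21 days between 6.45 and 7.25, while the groups overlap or lie close in the other panels.

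Id3, which like Id2 restrains E proteins and is a classical early BMP target, read 8.01 and 8.10 in P4_WT, 7.32 and 7.87 in P21_WT, and 7.57, 7.80, 7.42 and 7.46 in P21_KO. Both P4_WT arrays were above all arrays of 21 days, with P21_WT replicate 2 the closest. The change with age in wild type was -0.46 ± 0.22 (SE), with a 95% interval from -0.97 to 0.05, and missed the threshold (limma adjusted p = 0.464). Knockout cells differed from P4_WT by -0.49, with a 95% interval from -0.93 to -0.04, which also missed it after adjustment (limma adjusted p = 0.196). P21_KO and P21_WT differed by -0.03, with a 95% interval from -0.47 to 0.42.

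Id4, known from the nervous system and the testis, read 4.57 and 3.66 in P4_WT, 3.56 and 3.50 in P21_WT, and 3.00, 3.39, 3.33 and 3.43 in P21_KO. The values stepped down from group to group without overlap, but P4_WT replicate 2 lay close to the older arrays and P21_KO replicate 1 was below its array's median. The change with age in wild type was -0.59 ± 0.29 (SE) (limma adjusted p = 0.471). The knockout cells differed from P4_WT by -0.83 ± 0.25 (SE) (limma adjusted p = 0.0935). This difference was -1.28 without P4_WT replicate 2, and -0.37 without P4_WT replicate 1, the array with the highest hair matrix markers. The change with age in wild type was -1.04 and -0.13 in the same fits. Between the genotypes at 21 days Id4 differed by -0.24, with a 95% interval from -0.81 to 0.33.

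Id1 was the one ID gene with a higher mean at 21 days. It read 4.44 and 4.68 in P4_WT, 5.21 and 4.84 in P21_WT, and 4.53, 4.98, 4.66 and 4.75 in P21_KO. Wild-type arrays of 21 days lay above those of 4 days, and the knockout arrays overlapped both. The change with age in wild type was 0.46 ± 0.21 (SE), with a 95% interval from -0.02 to 0.95 (limma adjusted p = 0.425). The difference between genotypes was -0.29, with a 95% interval from -0.71 to 0.13, and that of knockout cells from P4_WT was 0.17, with a 95% interval from -0.25 to 0.60.

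The ligands were read at lower signal and with no call. Bmp2 read 3.73 and 3.62 in P4_WT, 3.31 and 3.48 in P21_WT, and 3.11, 3.25, 3.68 and 3.15 in P21_KO. It was below the array median on 3 of 8 arrays, and its changes of -0.28 with age, -0.10 between genotypes and -0.38 from P4_WT to the knockout had adjusted limma p-values of 0.705, 0.975 and 0.317. Bmp2 is made in dermis and follicle. Near the floor RMA compresses differences, and the part of this in the size of its changes was not tested.

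Bmp4, a ligand made by the dermal papilla and other skin cells, was the most variable member. It read 3.72 and 4.57 in P4_WT, 3.58 and 4.75 in P21_WT, and 3.33, 6.28, 3.78 and 4.06 in P21_KO. P21_KO replicate 2 was far above the other knockout arrays. Replicate 2 was the higher array in both wild-type groups as well, but replicate numbers were not taken as pairs. Group means were 4.15 ± 0.60 (SD, n = 2), 4.17 ± 0.83 (SD, n = 2) and 4.36 ± 1.31 (SD, n = 4). The 95% intervals of the change, from -1.99 to 2.03 with age and from -1.55 to 1.94 between genotypes, span about 4-fold in either direction (limma adjusted p = 0.996 and 0.995), so a smaller change of Bmp4 was not detectable on these arrays.

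The receptors stayed within a narrow range. Bmpr1a, the main type I receptor for Bmp2 and Bmp4, read 6.19 and 5.91 in P4_WT, 6.02 and 6.18 in P21_WT, and 6.21, 6.24, 6.14 and 5.52 in P21_KO. Only P21_KO replicate 4 lay below 5.9, and the groups overlapped. The 95% intervals were from -0.55 to 0.64 for the change with age, from -0.59 to 0.45 between genotypes and from -0.54 to 0.50 for knockout cells against P4_WT. The sign of the last of these depended on the normalization: it was -0.02 as deposited, 0.12 after quantile normalization and 0.10 after cyclic loess.

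Bmpr2, the type II receptor with a long intracellular tail, read 7.73 and 7.71 in P4_WT, 7.51 and 7.58 in P21_WT, and 7.63, 7.80, 7.49 and 7.49 in P21_KO. P4_WT arrays were above those of P21_WT and inside the range of P21_KO. The 95% intervals were from -0.56 to 0.21 with age, from -0.28 to 0.39 between genotypes and from -0.45 to 0.22 for the knockout against P4_WT, so a doubling was outside each. A further probe set, annotated to both Bmpr2 and Gm20272 and therefore left out of the member's value, changed by -0.02, -0.16 and -0.18 in the same comparisons.

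Smad6 blocks BMP receptors and is itself switched on by BMP signalling. It read 3.21 and 2.38 in P4_WT, 2.28 and 2.60 in P21_WT, and 3.21, 2.62, 2.60 and 2.53 in P21_KO. It was below the array median on 7 of 8 arrays, so its differences are those of a gene near the floor. The 95% intervals were from -1.10 to 0.38 with age, from -0.34 to 0.94 between genotypes and from -0.70 to 0.58 for the knockout against P4_WT.

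**Figure D2:**
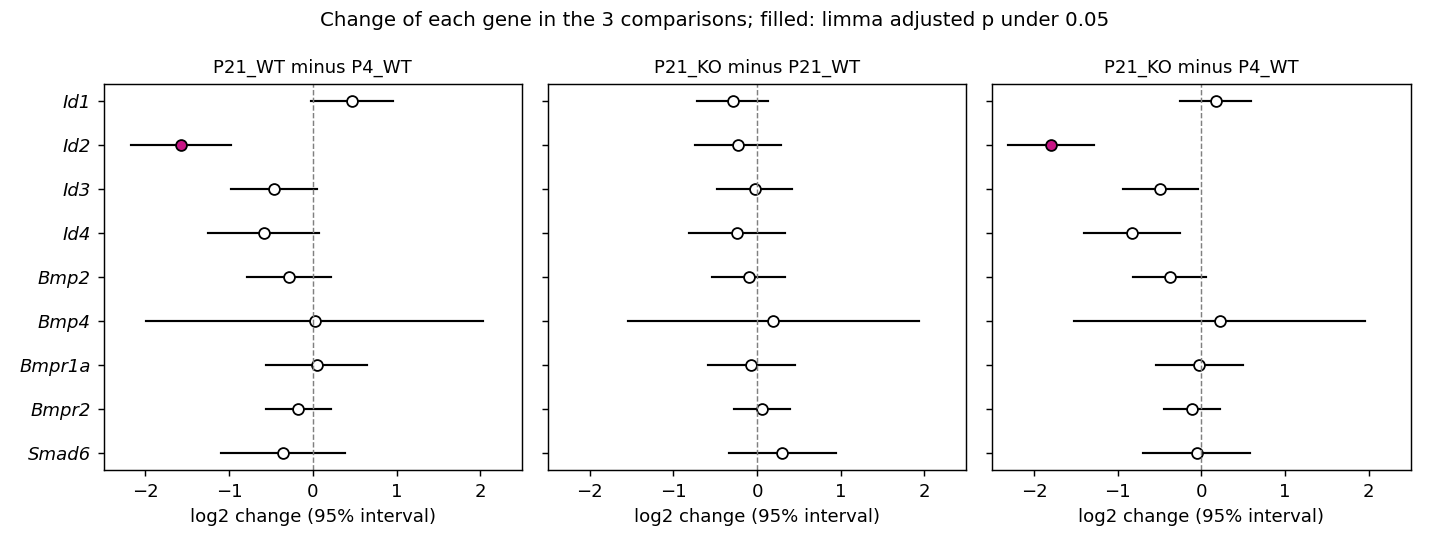
Log2 change of each of the 9 genes, with its 95% interval, for P21_WT minus P4_WT, P21_KO minus P21_WT and P21_KO minus P4_WT. Filled points have a limma adjusted p under 0.05, which holds for Id2 at -1.57 and -1.80, and the intervals of Bmp4 are the widest.

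Counted over the 9 genes, the wild-type groups did not overlap for 6: Id1 was higher at 21 days, and Id2, Id3, Id4, Bmp2 and Bmpr2 were lower, Bmpr2 only on the probe set used here. With 2 arrays a group such a separation is common, since 43.5% of all genes did not overlap, 21.4% higher and 22.1% lower. P21_KO and P21_WT did not overlap for Id4 alone, against 15.4% of all genes, 7.75% higher and 7.64% lower, and P21_KO and P4_WT did not overlap for Id2, Id3 and Id4, against 29.6%, of which 14.2% were higher and 15.5% lower. The members' median change was -0.28 with age, -0.07 between genotypes and -0.12 for the knockout against P4_WT, beside medians of 0.0022, 0.0071 and 0.019 over all genes.

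The members did not move as one block over the 8 arrays. Id2 correlated with Id3 at r = 0.86, with Id4 at r = 0.80 and with Bmp2 at r = 0.77, and with Id1 at r = -0.43. These correlations describe 8 arrays in 3 groups, and any pair of genes that differs between 4 and 21 days shares that difference.

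Several marker lists, of the pigment lineage, of other cells and of handling, followed or opposed Id2 over the 8 arrays. Weaker r with Id2 were 0.67 for fibroblast and dermal papilla, 0.64 for endothelial, 0.54 for immune cell and -0.39 for keratinocyte markers. The 16 immediate early and dissociation genes, a class that enzymatic digestion of tissue is known to induce, averaged 7.18 and 7.73 in P4_WT, 9.03 and 8.70 in P21_WT and 9.05 to 9.21 in P21_KO, and the r of their mean with Id2 was -0.95. All 16 were higher in P21_WT than in P4_WT, 9 of them called. The 10 hair matrix and inner root sheath markers averaged 5.96 and 4.22 in P4_WT and 3.04 to 3.13 on the arrays of 21 days. Of the 10, 9 were lower in P21_WT than in P4_WT, 3 of them called, and Gata3 was higher by 1.03. The r of the list's mean was 0.87 with Id2 and 0.93 with Id4. The 10 melanocyte markers averaged 9.34 and 9.25 in P4_WT, 8.16 and 8.16 in P21_WT and 6.35 to 7.82 in P21_KO, with r = 0.81 for Id2. Of the 10, 9 were lower in P21_WT than in P4_WT. Sox10 was higher, with means of 7.33 in P4_WT, 8.06 in P21_WT and 8.14 in P21_KO. The 7 measured Schwann cell and glial markers averaged 7.58 and 7.30 in P4_WT, 8.17 and 8.26 in P21_WT and 7.99 to 8.40 in P21_KO. Their mean had r = -0.88 with Id2. Of the 7, 6 were higher in P21_WT than in P4_WT. Fabp7 was lower, with means of 8.90 in P4_WT, 7.68 in P21_WT and 5.96 in P21_KO. The part of any of these markers in the fall of Id2 was not tested. In sorted bulk samples fewer cells of a type and less RNA per cell cannot be told apart.

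For the other members the marker lists gave lower correlations in part. Id3 had r = -0.76 with the immediate early genes and 0.72 with the melanocyte markers. With the immediate early genes r was -0.86 for Id4 and -0.71 for Bmp2. The r of Bmp4 stayed between -0.34 and 0.18 for all 8 lists, and the knockout array with Bmp4 at 6.28 had keratinocyte markers at 6.23 and fibroblast and dermal papilla markers at 5.16, each the lowest of the 4 knockout arrays, where the highest were 7.26 and 5.42. The part of these cells in the Bmp4 value was not tested. Keratinocyte markers, of which 9 were measured, ranged from 5.81 to 6.80 in P4_WT, from 6.90 to 6.98 in P21_WT and from 6.23 to 7.26 in P21_KO. Fibroblast and dermal papilla markers averaged 5.54 and 5.81 in P4_WT and 5.45 and 5.20 in P21_WT.

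**Figure D3:**
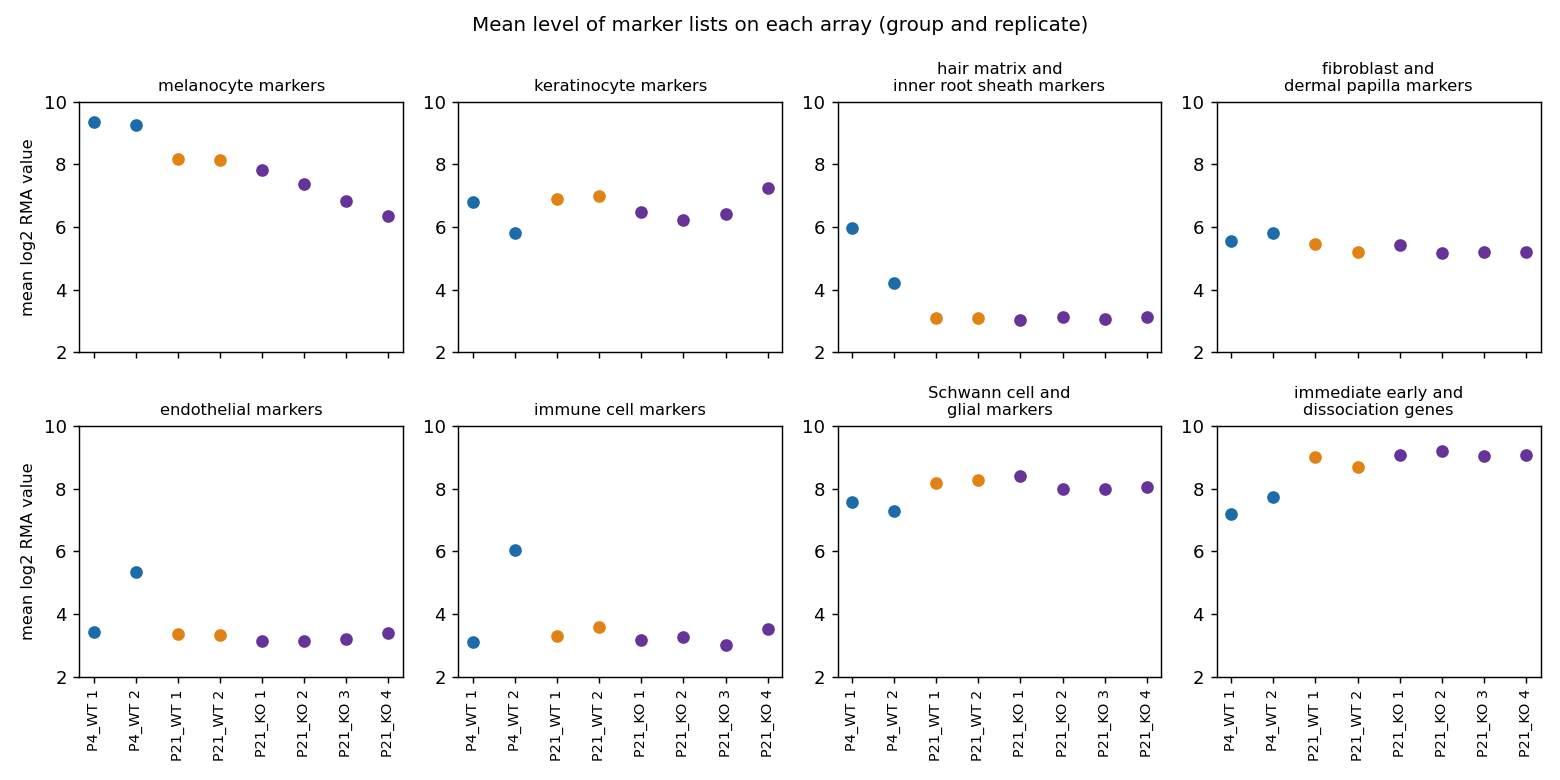
Mean log2 value of each of 8 marker lists on every array, by group. The immediate early genes are lowest in P4_WT, at 7.18 and 7.73, the hair matrix markers are highest there, at 5.96 and 4.22, and the endothelial and immune markers are raised on P4_WT replicate 2 only, at 5.34 and 6.04.

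The rest of the pathway was read from 6 lists that hold 67 genes besides the members, of which 60 were measured. With age in wild type 1 of the 60 was called, lower, and none higher, beside 1.61% of all genes. Between genotypes limma called none, and 10 of the 60 had an unadjusted p under 0.05, beside 6.52% of all genes. For the knockout against P4_WT 2 were called higher and 4 lower, beside 3.05% and 4.68% of all genes, so neither count stands far from the background. Their median changes were -0.01, -0.11 and -0.06, beside the medians of all genes given above. The medians of single lists that follow include the members they hold.

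Of these 6 called genes 3 were antagonists, a list of which 15 of 17 were measured. Fst encodes follistatin, a secreted protein that binds activins and some BMPs. It read 6.23 and 6.48 in P4_WT, 4.15 and 4.40 in P21_WT, and 3.81, 4.12, 2.91 and 3.24 in P21_KO. The groups did not overlap, and the fall ran in the order P4_WT, P21_WT, P21_KO. Fst fell by 2.08 ± 0.37 (SE) with age in wild type, a 4.23-fold lower signal (limma adjusted p = 0.0354), and knockout cells differed from P4_WT by -2.84 ± 0.32 (SE), a 7.14-fold lower signal (limma adjusted p = 0.0019). The first call was lost without any 1 of P4_WT replicates 1 and 2, P21_WT replicates 1 and 2 or P21_KO replicate 1 (limma adjusted p from 0.0569 to 0.174), and with only the 2 groups fitted (0.0547). The second held in all 21 alternatives. The genotypes differed by -0.76 at 21 days (limma adjusted p = 0.761).

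Fstl3, a relative of follistatin with a similar set of ligands, went the other way. It read 5.34 and 5.45 in P4_WT, 5.64 and 6.13 in P21_WT, and 6.88, 7.59, 7.15 and 7.01 in P21_KO, again without overlap. It was 1.76 ± 0.23 (SE) higher in knockout cells than in P4_WT, or 3.38-fold (limma adjusted p = 0.00354), a call that held in all 21 alternatives. Between the genotypes at 21 days it was 1.27 ± 0.23 (SE) higher, with a 95% interval from 0.75 to 1.79, which did not survive adjustment over all genes (limma adjusted p = 0.329). With age in wild type it changed by 0.49 (limma adjusted p = 0.521).

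Fstl1, a secreted glycoprotein that can antagonise BMP4, read 7.15 and 7.64 in P4_WT, 6.78 and 6.21 in P21_WT, and 5.79, 6.33, 5.94 and 5.50 in P21_KO. All 4 knockout arrays were below both P4_WT arrays, with a difference of -1.51 ± 0.27 (SE), or 2.84-fold (limma adjusted p = 0.0137). The call was lost without P4_WT replicate 2, with a change of -1.27 (limma adjusted p = 0.102). Chrdl1, which binds BMPs as its relative chordin does, read 3.38 and 2.66 in P4_WT, 4.85 and 3.93 in P21_WT and 3.56 to 4.79 in P21_KO, a change of 1.37 with age that was not called (limma adjusted p = 0.223). Over the antagonist list 0 genes were called higher and 1 lower with age, none between genotypes, and 1 higher and 2 lower in the knockout against P4_WT, with median changes of 0.07, -0.17 and 0.0046.

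Of the 8 SMADs and SMAD degraders, Smurf1 was called. It encodes a ubiquitin ligase that marks BMP SMADs for destruction. It read 4.76 and 4.70 in P4_WT, 5.54 and 5.86 in P21_WT, and 6.34, 6.56, 6.26 and 5.88 in P21_KO, so that the groups rose in that order without overlap. Knockout cells were 1.53 ± 0.20 (SE) above P4_WT, or 2.89-fold (limma adjusted p = 0.00393), which held in all 21 alternatives. The rise of 0.97 ± 0.24 (SE) in wild type missed the threshold as deposited (limma adjusted p = 0.101) and passed it after quantile normalization (0.0412) and cyclic loess (0.0433). The genotypes differed by 0.56 (limma adjusted p = 0.708).

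Smad9, a BMP-specific SMAD that shares its receptors with Smad1 and Smad5, read 3.60 and 3.90 in P4_WT, 2.82 and 2.95 in P21_WT, and 2.54, 3.00, 2.47 and 3.30 in P21_KO. Its difference between knockout cells and P4_WT was -0.92 (limma adjusted p = 0.0628) and was called in 4 of the alternatives. Smad7, an inhibitor of both TGF-beta and BMP receptors, read 5.60 and 5.32 in P4_WT, 4.91 and 4.84 in P21_WT and 4.31 to 5.02 in P21_KO, a difference of -0.71 between knockout and P4_WT (limma adjusted p = 0.104). Smad1, a direct substrate of BMP receptors, differed by -0.17 between genotypes (limma adjusted p = 0.952). No SMAD gene of the list was called. The list's medians were -0.18 with age, 0.07 between genotypes and -0.11 for the knockout against P4_WT.

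Among the 10 measured receptors and co-receptors, Eng was called. Endoglin is a co-receptor for BMPs and TGF-beta that is best known from endothelial cells, and it is also 1 of the 10 endothelial markers. It read 6.42 and 6.83 in P4_WT, 5.93 and 6.05 in P21_WT, and 4.93, 5.18, 4.57 and 4.13 in P21_KO, with no overlap. Knockout cells differed from P4_WT by -1.92 ± 0.28 (SE), a 3.79-fold lower signal (limma adjusted p = 0.00601). Without P4_WT replicate 2, the array with raised endothelial markers, the change was -1.72 and missed the threshold (limma adjusted p = 0.0503). The endothelial markers, Eng among them, averaged 3.41 on the other P4_WT array, 3.37 and 3.32 in P21_WT and 3.13 to 3.40 in P21_KO, and their part in the Eng difference was not tested. Between genotypes Eng differed by -1.29 ± 0.28 (SE), with a 95% interval from -1.94 to -0.64, and was not called after adjustment (limma adjusted p = 0.483). Acvr2a, a type II receptor for activins and BMPs, changed by -0.76 with age (limma adjusted p = 0.176), and Acvr1, a type I receptor, by -0.69 (limma adjusted p = 0.424). Rgmb, a membrane co-receptor, differed by -0.40 between genotypes and by -0.52 between knockout cells and P4_WT (limma adjusted p = 0.804 and 0.159). The list's medians were -0.15, -0.0053 and -0.12 in the 3 comparisons.

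None of the 14 ligands was called in any comparison, and their medians were 0.06, -0.12 and 0.03. Bmp6, a ligand of the epidermis and of the resting follicle, had the smallest p between genotypes. It read 4.04 and 3.48 in P4_WT, 4.24 and 4.26 in P21_WT, and 2.86, 2.99, 3.33 and 3.11 in P21_KO. All 4 knockout arrays lay below both wild-type arrays of 21 days, with a difference of -1.18 ± 0.20 (SE) and a 95% interval from -1.64 to -0.72 (limma adjusted p = 0.284). The knockout values were near the array median, and the part of this in the size of the difference was not tested. Bmp7, a ligand that pairs with several of the others, read 4.51 and 4.27 in P21_WT and 3.29 to 4.07 in P21_KO, a difference of -0.66 (limma adjusted p = 0.712). Gdf5, a ligand of joints, changed by 0.40 with age (limma adjusted p = 0.411), and Bmp10, a ligand of the heart, differed by 0.26 between knockout cells and P4_WT (limma adjusted p = 0.356) at values below the array medians.

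No gene of the list of other BMP targets was called either, of which 12 of 15 were measured, and the medians were -0.26, 0.13 and -0.07. Hamp, the iron hormone hepcidin and in liver a BMP6 target, read 2.01 and 2.24 in P4_WT and 2.08 and 2.16 in P21_WT, and 2.19, 4.48, 5.24 and 6.26 in P21_KO. It was at the floor on all wild-type arrays and on 1 knockout array, and raised on the other 3, which are the 3 whose labels share a number. The difference between genotypes was 2.43 ± 0.91 (SE) (limma adjusted p = 0.712), and the difference from P4_WT was called only without P21_KO replicate 1, at 3.20 (limma adjusted p = 0.00902). Snai2, a transcription factor needed by melanoblasts, read 6.31 and 5.56 in P4_WT, 6.41 and 5.40 in P21_WT, and 5.24, 5.29, 4.73 and 3.68 in P21_KO, a genotype difference of -1.17 (limma adjusted p = 0.754). With age Atoh8 changed by -0.70 (limma adjusted p = 0.183) and Gata3, which is also 1 of the hair matrix markers, by 1.03 (limma adjusted p = 0.264). Dlx3, another of those markers, had the list's lowest change with age, -1.32 (limma adjusted p = 0.520). Dlx3 read 7.00 and 4.23 in P4_WT, 4.34 and 4.26 in P21_WT and 4.09 to 4.55 in P21_KO.

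The E proteins and their partners are what ID proteins act on, and 9 of 10 were measured. Tcf4, an E protein, read 6.49 and 7.29 in P4_WT, 6.29 and 6.24 in P21_WT, and 5.91, 5.56, 5.52 and 5.14 in P21_KO. It differed by -1.36 ± 0.27 (SE) between knockout cells and P4_WT, a 2.57-fold lower signal (limma adjusted p = 0.0191), and this call was lost without P4_WT replicate 2, where the change was -0.96 (limma adjusted p = 0.123). It was also lost when the 3 knockout arrays that share a label number were averaged into 1 (-1.24, limma adjusted p = 0.0862). Tcf3, the gene of E12 and E47, read 6.33 and 6.79 in P4_WT, 6.19 and 5.75 in P21_WT and 5.71 to 6.07 in P21_KO, a difference of -0.69 between knockout and P4_WT (limma adjusted p = 0.0812). Hes1, a repressor downstream of Notch, differed by -0.49 between genotypes (limma adjusted p = 0.708). The list held no other call, and its medians were 0.06, -0.11 and -0.13.

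**Figure D4:**
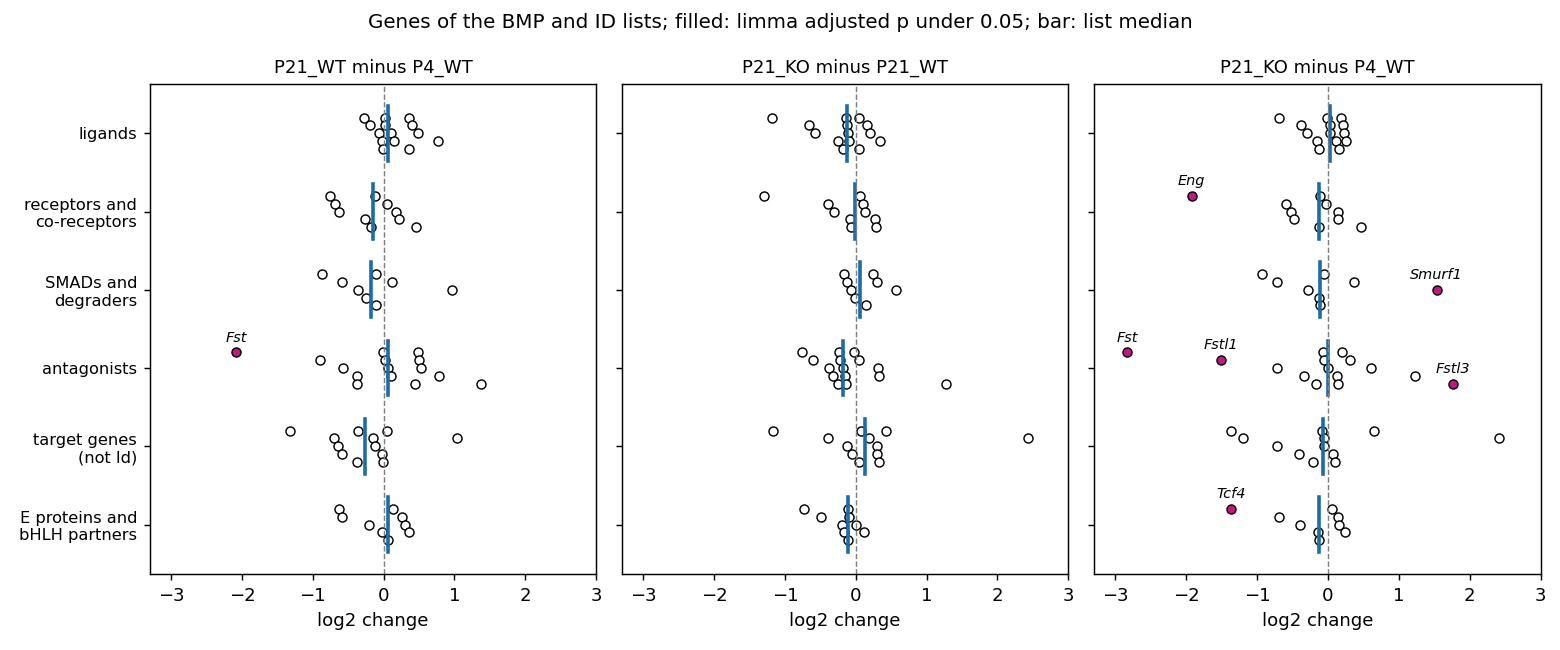
Log2 change of every measured gene of the 6 BMP and ID lists in the 3 comparisons, 1 point a gene and a bar for the list's median, with filled points for a limma adjusted p under 0.05. Fst is called lower with age, and Smurf1, Fstl3, Fst, Fstl1, Eng and Tcf4 are called between knockout cells and P4_WT.

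**Figure D5:**
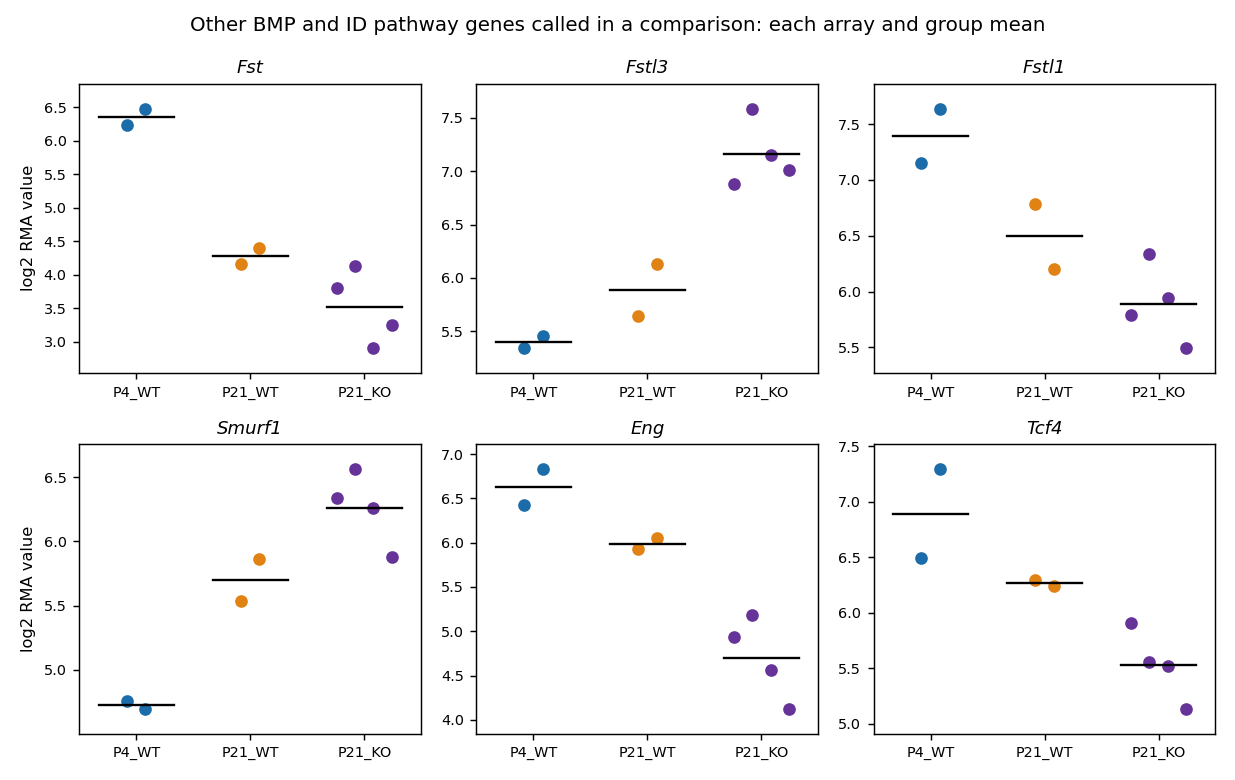
Log2 values of the 6 called genes that are not members, with a point for each array and a line for each group mean. Fst, Fstl1, Eng and Tcf4 step down and Fstl3 and Smurf1 step up from P4_WT to P21_WT to P21_KO, with overlap only between the Fstl1 values of the 2 groups of 21 days.

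The genes whose pattern over the 8 arrays was most like that of each member were found by Pearson's r across the 22180 genes, as a description with no test. For Id2 these were Chaf1b (r = 0.982), Mastl (0.979) and Klhl13 (0.978). Chaf1b, a subunit of a histone chaperone that works at replication, read 3.57 and 3.50 in P4_WT and 2.70 to 2.96 on the 6 arrays of 21 days. Mastl, a mitotic kinase, read 4.58 and 4.53 in P4_WT and 2.43 to 3.08 at 21 days. Both were above the array median at 4 days and below it at 21 days. For Id3 the nearest was Lrrc32 (r = 0.978), for Id4 Tbc1d31 (0.977), for Id1 Pnmt (0.962), for Bmp2 Apba2 (0.989), for Bmp4 Cmtm1 (0.968), for Bmpr1a Stard3nl (0.959), for Bmpr2 Rin3 (0.974) and for Smad6 Tcea1 (0.966). With 8 arrays and this many genes, high values of r arise for every member, including those such as Bmp4 whose groups did not differ.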

How the data were processed

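The authors deposited log2 values. Per the submitters' processing notes these came from RMA (background subtraction, quantile normalization and summary over probes), run in Affymetrix Expression Console, both with a version not given in the sources used here. RNA was extracted from sorted cells and its complementary DNA was amplified (Nugen's Ovation PicoSL WTA kit) and biotinylated, per the labels' protocols.

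Of 41345 rows, 23521 had 1 gene symbol and 1814 had several in the platform annotation. The probe set with the highest mean per symbol left 22180 genes, and the IDs of all 9 members were found in the mouse gene table (GRCm38.p6). No filter on dim genes was applied. Group means were estimated and compared with limma 3.58.1 in R 4.3.3 (lmFit, eBayes), all 8 arrays entering 1 fit with 5 residual degrees of freedom and two-sided p-values adjusted by Benjamini-Hochberg over all genes. Genes with an adjusted p under 0.05 count as called. Comparisons were P21_WT minus P4_WT, P21_KO minus P21_WT and P21_KO minus P4_WT, which share arrays. On simulated data for the 22180 genes with 200 changed, changes of 1 log2 unit were recovered in 31%, 44% and 41% of cases in these comparisons and changes of 2 log2 units in 74%, 81% and 86%, with 4, 3 and 4 unchanged genes called.

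The text names all members and, from each of the 6 BMP and ID lists and in each comparison, up to 6 called genes or, where fewer than 2 were called, the 2 with the smallest p. It also gives up to 3 genes with the highest r to each member, and Dlx3 as the target gene with the lowest change with age. For list genes that were not called, values of single arrays are given for only some. Members and lists were chosen with earlier results of these data known. Alternatives changed the prior, the array weights, which arrays were fitted, normalization, dim genes, probe sets, blocks for the replicate and label numbers, the threshold and leaving out each array. Same-numbered arrays of different groups did not deviate together (r from -0.037 to 0.0057), so the numbers were not taken as pairs. The other gene targeted in the knockout is not reported here.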

Additional observations from a re-analysis of the deposited data

Results flagged for a closer look

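In the groups of 4, an array was marked when its gap to the nearest array, as a share of the group's range, exceeded Dixon's 95% critical value. Of the 32 members and list genes named by the rule above, 2 were marked, both members, and chance marks about 1 in 20. Bmpr1a read 5.52 in P21_KO replicate 4, with the next array at 6.14 and the highest at 6.24, a share of 0.862. Smad6 read 3.21 in P21_KO replicate 1, with the next array at 2.62 and the lowest at 2.53, a share of 0.865. P21_KO replicate 4 also had the lowest array weight, 0.65, and the lowest melanocyte marker mean, 6.35. The part of these in its Bmpr1a value was not tested.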

How the results depend on the processing

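Precision is set by groups of 2 arrays. The count of members called with age was 0 rather than 1 when only the 2 groups were fitted or with a replicate block, and 0 to 1 when single arrays were left out. Genes called with age were 357, against 49 with only the 2 groups, 45 with the replicate block, 674 at an adjusted p under 0.10, and 119 to 338 without single arrays. Between genotypes 0 genes were called, against 1 with arrays of the shared label number averaged and 0 to 15 without single arrays, and 0 members throughout. Between knockout and P4_WT 1 member was called, against 2 at an adjusted p under 0.10 and 1 to 2 without single arrays, and 1715 genes, against 463 with the replicate block, 977 with the shared number averaged and 921 to 1529 without single arrays. The cause of these changes in the counts was not tested.

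With the replicate block the Id2 change with age stayed at -1.57 (limma adjusted p = 0.0929), and the calls of Fstl1 (-1.34, 0.121) and Tcf4 (-1.16, 0.145) between knockout and P4_WT were lost, as was that of Tcf4 with the shared number averaged (-1.24, 0.0862). No other call of a gene named changed under the block.

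Signs that turned belonged to small changes with no call. Between knockout and P4_WT, Bmpr1a was 0.033 with array weights, 0.12 with quantile normalization, 0.10 with cyclic loess, 0.17 with the replicate block and 0.038 with the shared number averaged, Bmpr2 was 0.0081 with cyclic loess, Smad6 was 0.12 with the block and 0.10 with the shared number averaged, and Bmp4 was -0.13 with the latter. Between genotypes, Id3 was 0.094 and Bmpr1a 0.13 with the block, and Bmp4 was -0.15 with the shared number averaged. Leaving out single arrays moved the change with age from -0.56 to 0.61 for Bmp4, -0.091 to 0.18 for Bmpr1a and -0.77 to 0.061 for Smad6. It moved the genotype difference from -0.53 to 0.075 for Id2, -0.31 to 0.25 for Id3, -0.44 to 0.78 for Bmp4, -0.15 to 0.10 for Bmpr1a, -0.0065 to 0.0952 for Bmpr2 and -0.35 to 0.022 for Smad1. For knockout against P4_WT the ranges were -0.42 to 0.64 for Bmp4, -0.16 to 0.15 for Bmpr1a and -0.47 to 0.36 for Smad6. Smad6 and Bmp10 gave no value with dim genes left out.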
